A study of Mus musculus with 11 samples.

Results

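Alveolar type 2 (AT2) cells were examined in single-cell RNA sequencing of mouse lung, in which each droplet barcode stands for 1 cell and each unique molecular identifier (UMI) for 1 captured RNA molecule. A barcode counted as an AT2 cell when it held 1000 to 30000 UMIs with at most 14% from mitochondrial genes, at least 4 UMIs of Slc34a2, Lamp3 and Lgi3 together, at least 5 UMIs of Sftpb, and at most 1 UMI of the leukocyte gene Ptprc. The rule took 3604 of the 69267 barcodes that passed the UMI and mitochondrial limits, out of 81983 barcodes in all. The 11 libraries came from dissociated lungs of 1 wild-type (+/+, WT) sample, 3 p21 heterozygotes (+/-, p21Het), 5 p21 mTert (+/mTert, p21mTert) samples and 2 p21 mTertCD (+/mTertCD, p21mTertCD) samples, aged 18 months by the labels except p21Het_1 at 19 and p21mTert_1 at 20. A name such as p21Het_2 stands for replicate 2 of the p21Het group. All groups but WT carry 1 altered allele of p21 (gene Cdkn1a), and in the mTert and mTertCD groups that allele holds a telomerase reverse transcriptase sequence. The comparison of p21mTert with p21Het asks what the mTert allele adds to the loss of 1 p21 copy, and that of p21mTert with p21mTertCD sets the mTert allele against the mTertCD allele. The labels do not say that libraries of a group came from separate animals, so p-values measure the spread between libraries, which may in part be technical.

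AT2 cells line the alveoli beside the flat alveolar type 1 (AT1) cells. They make surfactant, a film of phospholipid and surfactant proteins that lowers surface tension, and store it in lamellar bodies until it is secreted. They also act as progenitors that divide and turn into AT1 cells after injury, passing through a transitional state with high keratin 8, and they secrete proteins of innate defence. Cdkn1a encodes p21, an inhibitor of cyclin-dependent kinases that halts the cell cycle, and Tert encodes the catalytic subunit of telomerase.

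Libraries held 42038434 to 85988955 UMIs and gave 268 AT2 cells in the WT library, 410, 591 and 140 in those of p21Het, 263, 388, 386, 460 and 251 in those of p21mTert, and 245 and 202 in those of p21mTertCD, in order of replicate. The median AT2 cell held 16679 to 23243.5 UMIs, against 4133 to 6454 over all filtered barcodes of a library, and 1082 AT2 cells (30.0%) held under 10000. WT_1, p21Het_1 and p21mTert_1 have titles without a replicate number and match the samples that the series' design text describes, and they are called the earlier deposit here and the other 8 libraries the later one, so that for p21Het_1 and p21mTert_1 age and deposit cannot be told apart. Of the barcodes that met the marker rule, the limit of 30000 UMIs left out 4.29% to 10.5% in the earlier deposit and 24.0% to 46.8% in the later one. The RNA listed as Gm42418 took 4826 to 5273 of every 1000000 UMIs in AT2 cells of the earlier deposit and 52577 to 145265 in the later one. Of 68646 filtered barcode sequences, 617 occurred in more than 1 library, and 1 was an AT2 cell in more than 1.

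The cells carried the RNA of AT2 cells beyond the genes that chose them. All levels below are counts per 1000000 UMIs (CPM), the UMIs of a gene summed over the AT2 cells of a library and scaled by all UMIs of those cells. Hc, complement component C5, was not part of the rule and stood at 1393 CPM in the WT library, 1591, 2057 and 1583 in those of p21Het, 1695, 1711, 1516, 1711 and 1566 in those of p21mTert, and 1727 and 1568 in those of p21mTertCD. It was far lower in other cells, at 1.92 to 18.8 CPM in endothelial barcodes (6848, chosen by their own marker UMIs) and at 1.62 to 13.4 CPM in club cells of the airway (1621). In AT1 barcodes Hc stood at 0 to 97.3 CPM and in B cells at 4.08 to 44.5. Sftpc, which encodes surfactant protein C, took 132433 to 180450 CPM of the AT2 cells, and 322 to 1385 CPM of endothelial barcodes. It took 3349 to 27580 CPM of AT1 barcodes and 252 to 3697 of B cells. Of the rule's genes, the phosphate transporter Slc34a2 stood at 4438 to 6231 CPM, the lamellar body membrane protein Lamp3 at 1348 to 1726, Lgi3 at 263 to 518 and the surfactant protein gene Sftpb at 8554 to 11556, values that describe the choice and support nothing. Ager, a defining AT1 gene, stood at 625 to 848 CPM in AT2 cells and at 6146 to 16847 CPM in the 388 AT1 barcodes.

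**Figure D1:**
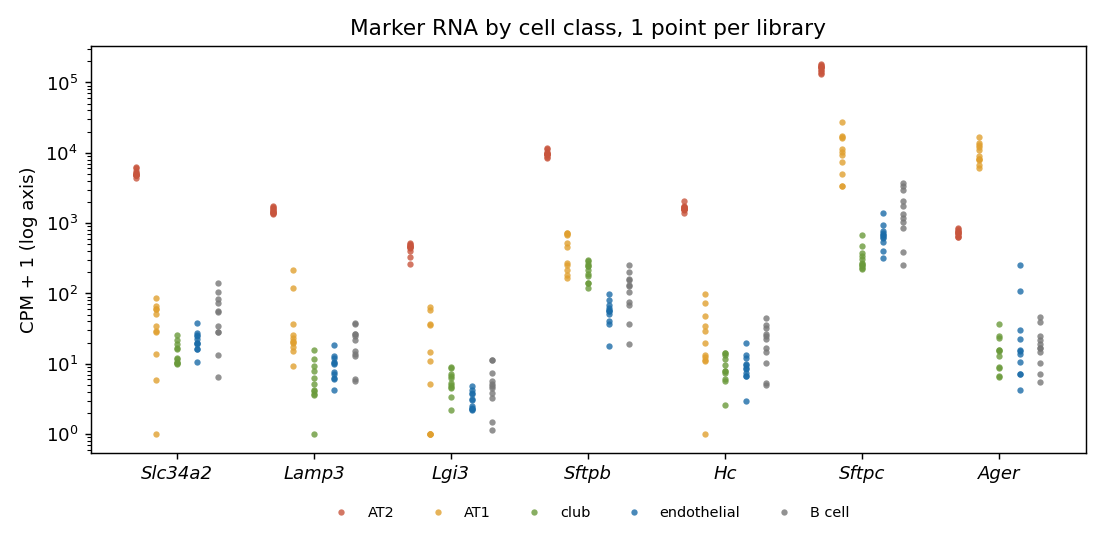
RNA of the 4 marker genes of the rule, of Hc and Sftpc, and of the AT1 gene Ager in 5 cell classes, as CPM plus 1 on a log axis, with 1 point per library. AT2 cells (red) stand highest for every gene but Ager, which is highest in AT1 cells (orange), and Hc lies at 1393 to 2057 CPM in AT2 cells and at 1.92 to 18.8 CPM in endothelial barcodes.

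RNA of other cells was present in the AT2 sums. The 7 markers of alveolar macrophages summed to 35.5 to 414 CPM, the 7 of endothelial cells to 17.7 to 106, the 6 of fibroblasts to 2.50 to 30.9, the 4 of neutrophils to 13.3 to 131 and the 5 of B cells to 20.4 to 54.5. The 3 club cell genes summed to 2006 to 8219 CPM, and the haemoglobin and other erythroid genes to 20.4 to 2437. The macrophage sum was highest in p21Het_2 (414 CPM) and p21mTertCD_1 (288), and Chil3, its most abundant member, stood at 865 and 587 CPM in the endothelial barcodes of the same libraries against 12.1 in those of WT_1. Members just inside the rule, with a marker sum of 4, numbered 162 and held a median of 323 Sftpc UMIs, and the 130 barcodes just outside, with a sum of 3, held a median of 332.5.

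AT2 cells made up 4.90% of filtered barcodes in WT (exact Clopper-Pearson 95% confidence interval 4.35% to 5.51%, counting error only). Their share among p21Het libraries was 6.59%, 6.93% and 2.39%. It was 4.23%, 5.16%, 6.12%, 7.34% and 5.32% in those of p21mTert and 3.74% and 3.61% in those of p21mTertCD. The p21Het libraries span the values of all other libraries but 1, and both p21mTertCD libraries lie below all 5 of p21mTert. As shares of barcodes with at most 1 Ptprc UMI the latter groups overlapped. They stood at 13.2% and 11.9% in p21mTertCD and at 12.2% to 16.2% in p21mTert. With a ceiling of 60000 UMIs, chosen after seeing the data, the 2 groups overlapped as well. AT2 cells were then 355 of 6928 and 367 of 5905 barcodes in p21mTertCD and a lower share, 288 of 6331, in p21mTert_1. The mean share of filtered barcodes for p21mTert was 5.63% ± 1.17 (SD, n = 5). For p21Het it was 5.30% ± 2.53 (SD, n = 3), and for p21mTertCD 3.67% ± 0.0901 (SD, n = 2). None of the 3 differences passed the 2-sided exact permutation test, and none could have. With so few libraries even the smallest possible p-values, given here unadjusted, stay above 0.05 once adjusted over the 3 comparisons. The test therefore cannot tell whether the shares differ. p21mTert minus p21Het was 0.33 points (exact p = 0.804, adjusted p = 0.804, smallest possible 0.0179), p21mTert minus p21mTertCD was 1.96 points (exact p = 0.0952, adjusted p = 0.286, smallest possible 0.0476), and p21mTertCD minus p21Het was -1.63 points (exact p = 0.4, adjusted p = 0.6, smallest possible 0.1). The first of these changed sign without p21Het_3, to -1.13 points, and without p21mTert_4, to -0.10 points.

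Neither gene of the altered alleles stood apart by genotype in AT2 cells. Cdkn1a (chr17:29090976-29100727, GRCm38) stood at 95.3 CPM in the WT library, 59.9, 93.0 and 147 in those of p21Het, 78.5, 120, 102, 80.3 and 87.3 in those of p21mTert, and 78.9 and 76.5 in those of p21mTertCD, and the groups overlapped. Which part of the gene the altered alleles lack is not given in the sources used here, so these counts check no label. Tert (chr13:73626911-73649843) stood at 2.78 CPM in the WT library, 1.65, 1.41 and 1.45 in those of p21Het, 1.39, 3.08, 2.92, 2.99 and 1.63 in those of p21mTert, and 3.67 and 1.46 in those of p21mTertCD. These rest on 13, 28, 79 and 19 Tert UMIs per group, and the p21mTert minus p21Het difference of 0.74 ± 0.41 (log2, SE) had an adjusted p of 0.839 by edgeR's quasi-likelihood test. In endothelial barcodes Tert stood at 3.66 to 12.9 CPM in p21mTert and 0.221 to 1.92 CPM in p21Het, and these ranges do not overlap. The p21mTertCD libraries stood there at 6.49 and 6.895 CPM, inside the p21mTert range, and the WT library at 0.637.

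Few genes differed in AT2 cells between p21mTert and p21Het. Of 11457 genes tested, 6 passed at an adjusted p under 0.05 (0.0524%), 3 higher and 3 lower in p21mTert (0.0262% each), by edgeR's quasi-likelihood test on the summed UMIs with Benjamini-Hochberg adjustment over all genes. Cd59a, Camk2b and 2610301B20Rik were higher, and Rell1, Lrmda and Gm10600 lower. At an unadjusted p under 0.05 there were 690 genes (6.02%). Within the later deposit alone, a choice made after seeing the data, the p21mTert minus p21Het difference was 1.92 for Cd59a, 1.89 for Camk2b and -1.70 for Rell1 (edgeR adjusted p = 0.0117, 0.0158 and 0.00458). The earlier deposit holds 1 library of each of these groups and gives no within-deposit test.

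Cd59a encodes a membrane protein that blocks assembly of the complement membrane attack complex, and lies at chr2:104095801-104115354. Its RNA stood at 9.61 CPM in the WT library (exact Poisson interval 7.01 to 12.9), 8.56, 6.62 and 11.2 in those of p21Het, 25.2, 33.1, 31.3, 30.0 and 32.4 in those of p21mTert, and 3.67 and 2.33 in those of p21mTertCD. The 5 p21mTert libraries lie above all others, and the 2 p21mTertCD libraries below all others. The difference from p21Het was 1.88 ± 0.18 (log2, SE; adjusted p = 0.000891) and that from p21mTertCD 3.30 ± 0.27 (adjusted p = 0.000338), both by edgeR. p21mTertCD minus p21Het was -1.42 ± 0.31 and missed the threshold (edgeR adjusted p = 0.9995, unadjusted p = 0.000597). Per cell, 39.7% to 52.1% of AT2 cells with at least 10000 UMIs held a Cd59a UMI in p21mTert, 10.8% to 21.1% in p21Het, 7.10% and 5.30% in p21mTertCD and 14.0% in WT. The neighbouring paralog Cd59b stood at 0 to 1.40 CPM in AT2 cells. How reads shared by these paralogs were assigned was not tested.

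Camk2b, a subunit of a calcium- and calmodulin-dependent kinase (chr11:5969644-6066362), stood at 12.0 CPM in the WT library, 6.91, 5.10 and 3.99 in those of p21Het, 16.9, 19.4, 15.6, 17.9 and 20.5 in those of p21mTert, and 7.86 and 5.53 in those of p21mTertCD. The p21mTert libraries lie above all others, with WT next. The difference from p21Het was 1.71 ± 0.17 (log2, SE; edgeR adjusted p = 0.00151). That from p21mTertCD was 1.39 ± 0.21 and missed the threshold (edgeR adjusted p = 0.0812). Rell1, a membrane protein related to a tumour necrosis factor receptor family member (chr5:63908897-63968897), stood at 24.6 CPM in the WT library, 27.2, 28.6 and 29.0 in those of p21Het, 12.5, 9.49, 9.74, 8.56 and 7.68 in those of p21mTert, and 30.2 and 28.8 in those of p21mTertCD. Every p21mTert library lies below every other library. Rell1 was lower in p21mTert by -1.56 ± 0.14 against p21Het (log2, SE; edgeR adjusted p = 0.000891) and by -1.66 ± 0.16 against p21mTertCD (edgeR adjusted p = 0.00124).

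Lrmda, a gene of melanocyte differentiation (chr14:22019712-23056085), stood at 8.12 CPM in the WT library, 11.1, 14.9 and 11.2 in those of p21Het, 2.22, 1.41, 2.23, 2.72 and 0.699 in those of p21mTert, and 11.8 and 3.49 in those of p21mTertCD. The 5 p21mTert libraries lie below all others, and the 2 p21mTertCD libraries lie far apart. The difference from p21Het was -2.71 ± 0.37 (log2, SE; edgeR adjusted p = 0.0250), and 9 of 24 alternative fits lost it. It was lost without p21Het_1, p21Het_2, p21mTert_1, p21mTert_2, p21mTert_3 or p21mTert_4 (adjusted p = 0.0615, 0.181, 0.0508, 0.105, 0.0695 and 0.0596) and within the later deposit (0.116). 2610301B20Rik (chr4:10874498-10899425) stood at 27.1 CPM in the WT library, 25.2, 19.2 and 21.4 in those of p21Het, 35.8, 40.8, 40.5, 35.2 and 36.3 in those of p21mTert, and 26.5 and 29.1 in those of p21mTertCD. The p21mTert libraries lie above all others, by 0.80 ± 0.12 against p21Het (log2, SE; edgeR adjusted p = 0.0336), and 12 of 24 alternative fits lost the call, among them those that left out p21Het_1, p21Het_2, p21Het_3, p21mTert_2, p21mTert_3, p21mTert_4 or p21mTert_5. Gm10600 (chr4:42240639-42242685) held 0 UMIs in all 5 p21mTert libraries and stood at 17.9, 7.06 and 22.5 CPM in p21Het, 26.3 in WT, and 2.36 and 0 in p21mTertCD. Against a floor of 3 UMIs over the p21mTert group it was at least 159-fold lower than the p21Het mean of 15.8 CPM (edgeR adjusted p = 0.0270). For Gm10600 9 of 24 alternative fits lost the call, among them those without p21Het_1, p21Het_3, p21mTert_2, p21mTert_3 or p21mTert_4 (edgeR adjusted p = 0.106, 0.0772, 0.0821, 0.0695 and 0.0596), with a deposit term (0.124) and within the later deposit (0.145).

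Wdfy1, a lipid-binding protein of endosomes (chr1:79702262-79776143), missed the threshold although the p21mTert libraries lie above all others. It stood at 38.7 CPM in the WT library, 38.9, 25.5 and 38.4 in those of p21Het, 80.7, 76.1, 78.5, 74.7 and 86.6 in those of p21mTert, and 57.7 and 26.5 in those of p21mTertCD. The p21mTert minus p21Het difference was 1.25 ± 0.20 (log2, SE; edgeR adjusted p = 0.0622), and 8 of 24 alternative fits called it, among them those without p21mTertCD_1 or p21mTertCD_2 (adjusted p = 0.00113 and 0.000980). Mrc2, a collagen receptor, stood at 5.85 to 8.85 CPM in p21mTert and 2.39 to 3.63 in p21Het (edgeR adjusted p = 0.0541).

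**Figure D2:**
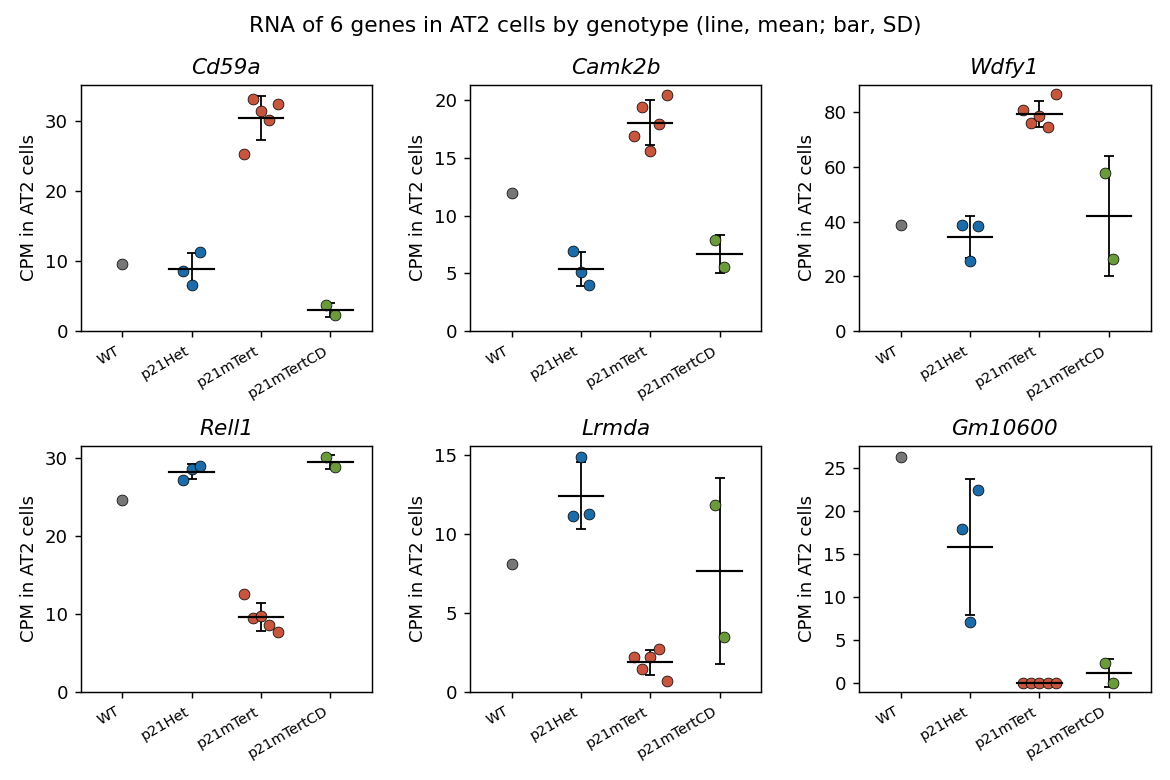
CPM of 6 genes in the AT2 cells of each library, by genotype, with the group mean as a line and the SD as a bar (WT has 1 library and no bar). Cd59a, Camk2b and Wdfy1 lie higher and Rell1, Lrmda and Gm10600 lower in all 5 p21mTert libraries than in the 3 p21Het libraries, and Wdfy1 missed the test's threshold.

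Against p21mTertCD, 2 of 11457 genes passed (0.0175%), Cd59a higher in p21mTert and Rell1 lower (0.00873% each). No gene passed between p21mTertCD and p21Het (0%). At an unadjusted p under 0.05, 752 genes (6.56%) were found in the former comparison and 436 (3.81%, with 1.61% higher and 2.2% lower) in the latter by edgeR. In the latter DESeq2 called 0, and without p21mTertCD_2 edgeR called 2, with 1 library left in that group and its spread taken from the other groups. The comparisons with p21mTert share its 5 libraries.

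Cd59a, Rell1, Camk2b, Wdfy1, Lrmda and Gm10600 were followed in other cells of these libraries. AT1 cells numbered only 9 (p21mTert_1) to 79 (p21mTert_2) per library. Their levels thus rest on few UMIs, over all libraries 157 for Cd59a and 12 for Camk2b, and overlap or its lack there is uncertain. In club cells Cd59a stood at 58.1 to 71.8 CPM in p21mTert, 25.6 to 29.0 in p21Het and 15.1 and 23.5 in p21mTertCD, and in AT1 cells at 55.0 to 106, 11.8 to 40.1, and 5.65 and 19.7 CPM. In endothelial barcodes the range was 8.11 to 15.4 CPM in p21mTert and 7.97 to 21.7 CPM in p21Het, and these overlap. Rell1 was at 48.8 to 57.7 CPM in endothelial barcodes of p21mTert and 53.3 to 79.3 of p21Het, with overlap, and at 11.1 to 23.2 and 25.2 to 55.8 CPM in B cells, without. Wdfy1 stood at 103 to 142 CPM in club cells of p21mTert and 25.3 to 42.7 of p21Het, and at 44.1 to 62.2 and 19.9 to 33.8 CPM in endothelial barcodes. Lrmda stood at 3.76 to 6.34 and 20.4 to 35.0 CPM in club cells, and Camk2b at 7.86 to 16.1 and 2.43 to 5.93 CPM. Camk2b also stood apart in endothelial barcodes, at 9.94 to 15.9 CPM in p21mTert and 4.87 to 7.67 in p21Het. Wdfy1 did so in B cells, at 28.6 to 38.9 and 14.8 to 23.1 CPM. Gm10600 had 0 UMIs in endothelial barcodes of p21mTert and stood at 9.96 to 22.1 CPM in those of p21Het, while AT1 cells held none in any library. Rell1 stood at 7.24 to 11.5 CPM in club cells of p21mTert and 14.4 to 24.3 of p21Het, and at 0 to 24.0 and 30.1 to 70.9 CPM in AT1 cells. Levels of Cd59a, Rell1, Wdfy1, Lrmda and Camk2b thus did not overlap between p21mTert and p21Het in AT2 or in club cells. In AT1 cells they overlapped for Wdfy1 (0 to 56.1 CPM in p21mTert and 22.1 to 50.1 in p21Het), Lrmda (0 to 3.43 and 0 to 17.2) and Camk2b (0 to 24.0 and 0), and in B cells for Cd59a (2.14 to 5.32 and 0.758 to 3.87), Camk2b (1.99 to 5.70 and 1.895 to 3.46) and Lrmda (0.0987 to 0.374 and 0.322 to 1.04). These genes were named with results of these data known, so their lack of overlap in AT2 cells supports nothing. The share of all genes without overlap was not counted in any cell class. The called gene 2610301B20Rik was not followed in other cells.

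Whether the p21mTert minus p21Het difference was itself different in AT2 cells was tested with an interaction term, with the library as a block. Against the sum of all other filtered barcodes, 0 of 16602 genes passed (0%), 934 had an unadjusted p under 0.05 by edgeR (5.63%), and the smallest adjusted p was 0.599. For Cd59a the extra difference in AT2 cells was 0.82 ± 0.29 (log2, SE; edgeR adjusted p = 0.850), for Rell1 -0.62 ± 0.23 (adjusted p = 0.855) and for Camk2b 0.42 ± 0.23 (adjusted p = 0.886). Against endothelial barcodes alone, an alternative, 2 of 13108 genes passed (0.0153%), and 692 had an unadjusted p under 0.05 (5.28%). The 2 that passed were Cd59a, with 1.91 ± 0.28 (log2, SE; edgeR adjusted p = 0.0492), and Rell1, with -1.33 ± 0.19 (adjusted p = 0.0492), whereas Camk2b had 0.59 ± 0.25 (adjusted p = 0.926).

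**Figure D3:**
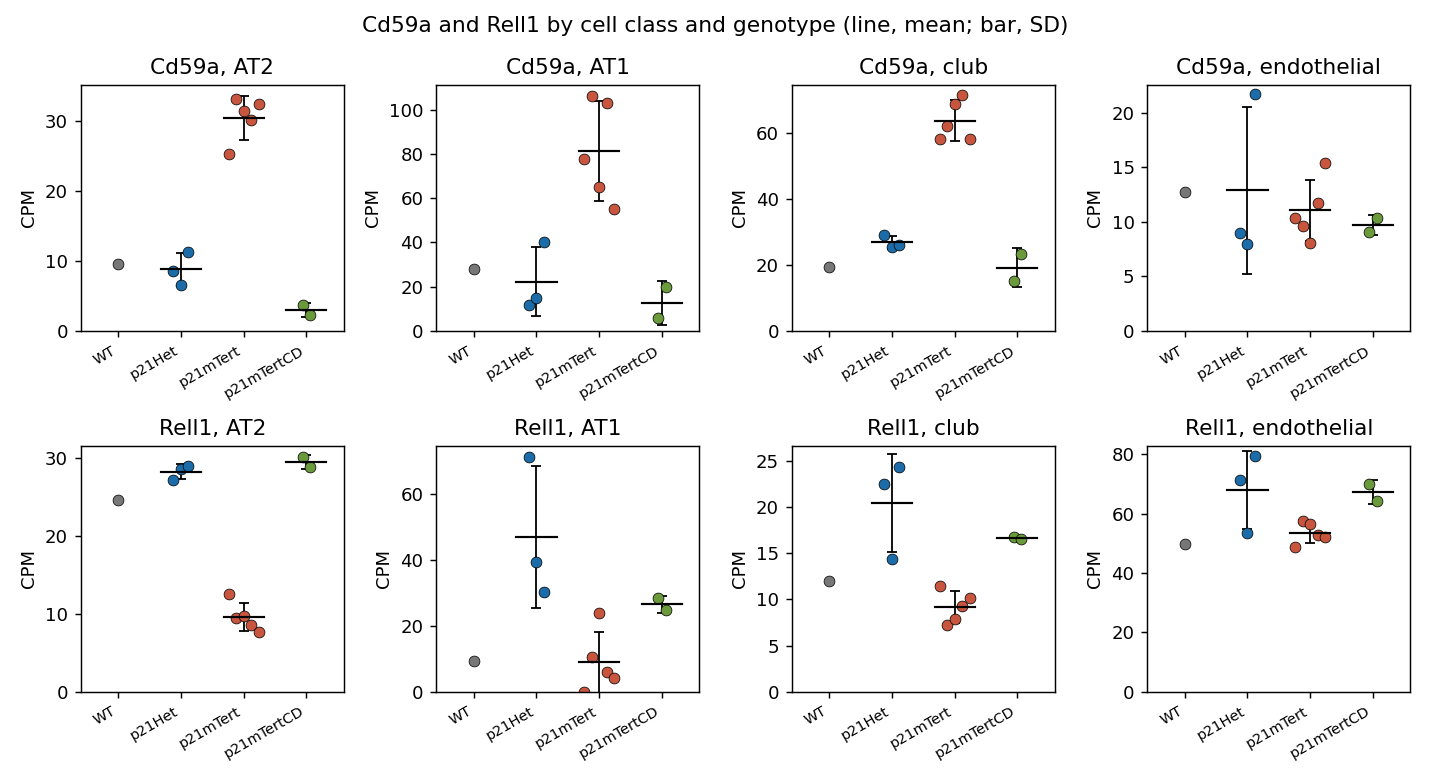
CPM of Cd59a (top) and Rell1 (bottom) in AT2, AT1, club and endothelial barcodes of each library, by genotype, with the group mean as a line and the SD as a bar. Cd59a lies higher in p21mTert than in p21Het in AT2, AT1 and club cells, while in endothelial barcodes the groups overlap (8.11 to 15.4 and 7.97 to 21.7 CPM). AT1 points rest on 9 to 79 barcodes per library and so on few UMIs.

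Of the genes of surfactant, its processing and lipid synthesis 0 were called in the 3 comparisons. Over all genes 0.0524%, 0.0175% and 0% were called, so a count of 0 does not set these lists apart. The 4 surfactant protein genes together took 171887 to 215944 CPM, and of the 3 tested 0 passed in any comparison, with a median p21mTert minus p21Het difference of -0.19 (log2) against 0.00030 over all genes. At an unadjusted p under 0.05 by edgeR 2 of them, Sftpa1 and Sftpd, were lower in p21mTert than in p21Het (3.19% of all genes) and 1, Sftpd, than in p21mTertCD (3.18%). Sftpa1 stood at 19578 to 26465 CPM and Sftpd, a collectin that binds microbes, at 3676 to 7671. Of 10 tested genes of lamellar bodies and surfactant processing, among them the protease Napsa (1740 to 2331 CPM) and the acyltransferase Lpcat1 (1027 to 1423), 0 passed. Fatty acid and phospholipid genes gave 0 of 19, with the desaturase Scd1 at 4645 to 13656 CPM, the fatty acid synthase Fasn at 687 to 1381 and the elongase Elovl1 at 646 to 1221. Cholesterol genes gave 0 of 17, and their median was -0.15 for p21mTert minus p21mTertCD, with 16 of 17 below 0, against 0.0016 over all genes. Hmgcs1 and Idi1, enzymes of the sterol pathway, stood at 149 to 242 and 169 to 245 CPM.

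Transcription factors and growth signals also gave counts of 0, near the 0.0524%, 0.0175% and 0% of all genes called. Of 12 AT2 transcription factors 0 passed in any comparison, with Nkx2-1, the lung lineage factor, at 255 to 380 CPM, Etv5 at 213 to 517 and Cebpa at 170 to 305. Of 25 genes for growth factor receptors and their feedback 0 passed, with the receptors Fgfr2 at 158 to 348 CPM and Met at 98.0 to 159, and the inhibitor Spry1 at 78.5 to 309. Ligands for neighbouring cells gave 0 of 17 tested. Among them the endothelial growth factor Vegfa was even across libraries, at 113 to 142 CPM, and Bmp4 lay at 59.8 to 109. Hbegf, an epidermal growth factor receptor ligand, stood at 88.7 CPM in the WT library, 73.8, 74.0 and 81.2 in those of p21Het, 94.6, 121, 124, 145 and 94.3 in those of p21mTert, and 52.95 and 85.8 in those of p21mTertCD. All 5 p21mTert values of Hbegf lie above those of both other altered groups, but it was not called. The ligand list had 4 genes higher and 2 lower in p21mTert than in p21Het at an unadjusted p under 0.05 by edgeR (2.83% and 3.19% of all genes), and its median was 0.12.

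Cell cycle, stress and senescence lists also held 0 called genes, which again lies near the 0.0524%, 0.0175% and 0% of all genes. Of 14 tested proliferation genes 0 passed, and after each cell was thinned to 2000 UMIs, to level depth, 10 of 3396 AT2 cells held an Mki67 UMI and 7 a Top2a UMI (208 shallower cells left out). The p53 target list gave 0 of 18, with Btg2 at 321 to 806 CPM and Trp53inp1 at 46.8 to 66.9. Senescence-associated genes gave 0 of 15, with the chromatin protein gene Hmgb1 at 299 to 383 CPM and the secreted Igfbp7 at 45.6 to 140. Telomerase and shelterin genes gave 0 of 18, with Nop10 at 94.5 to 119 CPM. Antioxidant genes gave 0 of 18, among them Gclc of glutathione synthesis at 570 to 919 CPM, and the unfolded protein response 0 of 15, with the chaperone Hspa5 at 283 to 599. Their medians for p21mTert minus p21Het were 0.13 (proliferation), 0.06 (p53), -0.03 (senescence), 0.14 (telomerase), -0.07 (antioxidant) and 0.17 (unfolded protein response).

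The AT1 list gave 0 of 11 called and the transitional list 0 of 16, the latter with 4 higher and 3 lower in p21mTert than in p21Het at an unadjusted p under 0.05 (2.83% and 3.19% of all genes) and a median of 0.04. Krt8, a keratin, stood at 294.5 to 371 CPM in p21mTert, above the 221 to 289.8 of p21Het, while p21mTertCD (243 and 361) overlapped both, and Krt18 ran from 182 to 422 CPM. In AT2 cells of at least 10000 UMIs the median Krt8 level per 10000 UMIs overlapped, at 2.43 to 2.98 in p21mTert and 1.77 to 2.45 in p21Het. In WT_1 this median was 3.09, the highest of all libraries. Ager, an AT1 receptor, stood at 731 to 848 CPM in p21mTert, 711 and 727 in p21mTertCD and 625 to 657 in p21Het, with no overlap between these groups, and at 777 in WT_1, inside the p21mTert range. Neither was called against p21Het (edgeR adjusted p = 0.805 for Krt8 and 0.732 for Ager). After thinning, 24.8% to 45.7% of a library's AT2 cells held a Krt8 UMI (63.6% to 88.8% unthinned), against 1.07% to 3.29% of endothelial barcodes. By group the thinned Krt8 share was 36.8% to 45.7% in p21mTert, 24.8% to 36.6% in p21Het, 32.6% to 36.4% in p21mTertCD and 44.6% in WT_1. For Ager the share was 63.4% to 75.7% (85.6% to 96.6% unthinned), against 0.712% to 3.06% of endothelial barcodes. For Lgals3 it was 5.81% to 11.3%, overlapping the 1.51% to 8.503% of endothelial barcodes. Only 5 of the 3396 thinned AT2 cells held a UMI of the transitional marker Cldn4. In p21Het_3, p21mTertCD_1 and p21mTertCD_2 Lgals3 stood at 79.4, 82.6 and 78.6 CPM, above the other 8 libraries at 41.6 to 66.8. The thinned shares did not set p21mTertCD apart. They were 6.67% to 10.1% there, 6.49% to 10.0% in p21mTert and 9.66% to 11.3% in p21Het.

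Of the antigen presentation, interferon and early response lists 0 genes were called, where 0.0524%, 0.0175% and 0% of all genes were called in the 3 comparisons. Of 7 genes of MHC class II 0 passed, and Cd74, their invariant chain, stood at 2878 to 4240 CPM. MHC class I and peptide loading gave 0 of 12, with all 12 below 0 for p21mTert minus p21mTertCD and a median of -0.42 (-0.24 without p21mTertCD_1). Of 19 tested interferon-stimulated genes 0 passed, 10 were lower in p21mTert than in p21mTertCD at an unadjusted p under 0.05 by edgeR (3.18% of all genes), and the median was -0.77. Without p21mTertCD_1 these became 0 of 20 and 0.03, while genes at an unadjusted p under 0.05 in either direction went from 752 to 486 over all genes. That leaves 1 p21mTertCD library, which is assumed to vary like the other groups. Usp18, which damps interferon signalling, stood at 38.8 CPM in p21mTertCD_1 and at 1.67 to 15.9 in the other 10 libraries, and Ifi27 at 175 against 82.6 to 103. Of 17 immediate early genes 0 passed, 7 were higher in p21mTert than in p21mTertCD at an unadjusted p under 0.05 (3.39% of all genes), with a median of 0.45. In the same fit without p21mTertCD_1, with its 486 genes, these became 0 and 0.12. Against p21Het 16 of the 17 immediate early genes lay above 0 in p21mTert, with a median of 0.29, and 1 was higher at an unadjusted p under 0.05 (2.83% of all genes). Their sum was 13724, 8720 and 10142 CPM in p21Het and 12357 to 14717 in p21mTert, so that p21Het_2 and p21Het_3 lay below all 5 p21mTert libraries and p21Het_1 among them. Without p21Het_1 8 were higher at an unadjusted p under 0.05, in a fit where genes under that p numbered 917 in either direction against 690 with all libraries, and the median was 0.47, and without p21Het_2 or p21Het_3 the median was 0.19. Jun stood at 855 CPM in p21mTertCD_1 and Fos at 928, the lowest of all libraries, and at 2820 and 2711 in WT_1, the highest.

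Some genes differed widely between libraries of 1 genotype. Of 5005 genes with a mean of at least 20 CPM, the median SD over the 11 libraries was 0.18 (log2), and the most variable genes included proteins of the acute-phase response, secreted mainly by liver during inflammation. Orm1, an acute-phase glycoprotein, had an SD of 2.94. Haemoglobin genes held ranks 3 to 6, and Gm42418, which differed between the deposits, rank 9. A list of 16 acute-phase and defence genes and a list of 6 that ran opposite were drawn up after these values were seen, so they are described here, with no test of either list. Of the 100 most variable genes, 12 were on the first list and 6 on the second. The first list summed to 4366 CPM in the WT library, 11242, 24795 and 7265 in those of p21Het, 11968, 4742, 9019, 9203 and 6326 in those of p21mTert, and 22882 and 8229 in those of p21mTertCD. The highest sums were thus in p21Het_2 and p21mTertCD_1, libraries of different genotypes, and the lowest in WT_1 and p21mTert_2.

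Pigr, the receptor that carries IgA across epithelia, stood at 6.62 CPM in the WT library, 593, 877 and 37.4 in those of p21Het, 463, 11.03, 232, 253 and 11.4 in those of p21mTert, and 1350 and 115 in those of p21mTertCD. Each genotype with replicates held both high and low libraries. The fibrinogen gamma gene Fgg stood at 1.28 CPM in the WT library, 90.7, 256 and 17.8 in those of p21Het, 122, 15.7, 75.01, 40.5 and 10.9 in those of p21mTert, and 304 and 29.1 in those of p21mTertCD. Fga, fibrinogen alpha, ranged from 1.495 to 149 CPM, while the beta chain gene Fgb had 0 UMIs in AT2 cells of every library. Lcn2, which binds bacterial siderophores, stood at 667 CPM in the WT library, 2974, 8132 and 1451 in those of p21Het, 3113, 844, 2411, 2417 and 1388 in those of p21mTert, and 7945 and 2128 in those of p21mTertCD. Saa3 ranged from 0.641 to 164 CPM, Lrg1 from 266 to 2677, the chitinase-like Chil1 from 2253 to 8203, Itih4 from 151 to 1302 and complement C3 from 119 to 366. Saa3 exceeded 10 CPM in p21Het_2 (82.2) and p21mTertCD_1 (164) alone.

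Genes that ran opposite were Bex2, Bex4, Pon1, Chia1, Acoxl and Cst8. Bex2 stood at 516 CPM in the WT library, 250, 35.7 and 244 in those of p21Het, 238, 230, 177, 318 and 280 in those of p21mTert, and 52.4 and 308 in those of p21mTertCD. It was lowest in p21Het_2 and p21mTertCD_1, where the acute-phase sum was highest. Chia1, an acidic chitinase, ranged from 65.5 CPM in p21Het_2 to 508 in p21mTert_5. It was also higher in all 5 p21mTert libraries (309 to 508 CPM) than in those of p21Het (65.5 to 269.9) and p21mTertCD (159 to 293), but was not called against either (edgeR adjusted p = 0.756 and 0.751). Pon1, a lactonase, ranged from 14.5 to 121 CPM.

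**Figure D4:**
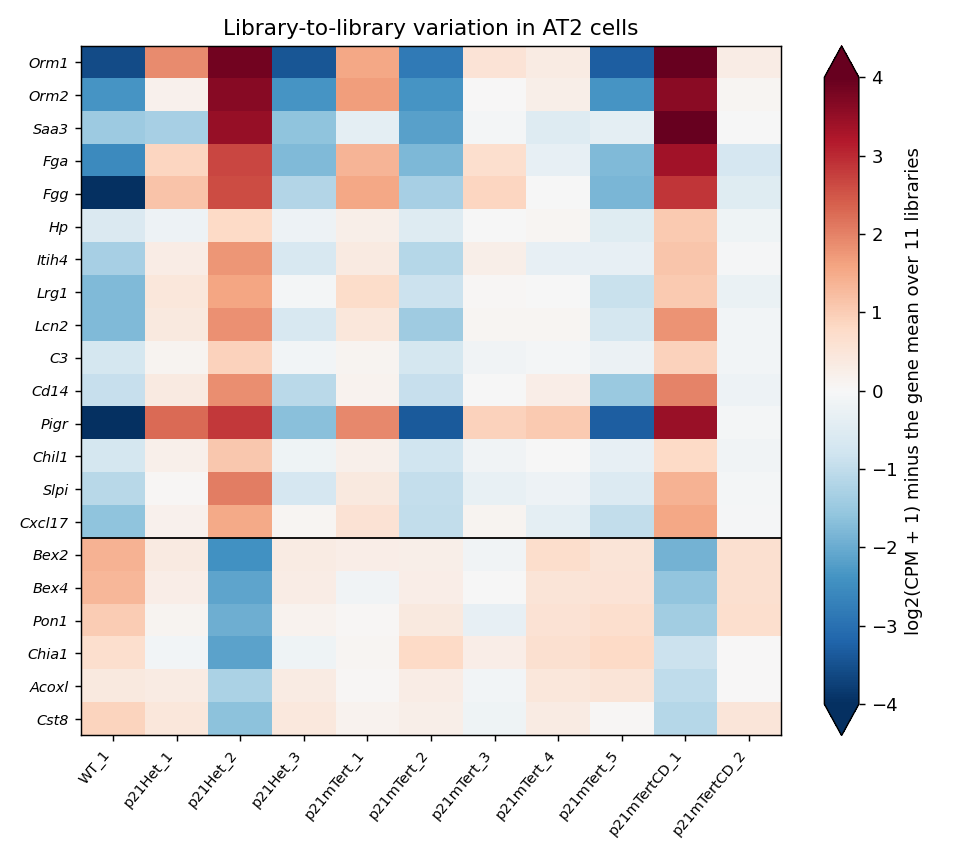
Levels in AT2 cells of each library for 15 genes of the acute-phase and defence list (above the line; Fgb, with 0 UMIs, is not drawn) and 6 genes that ran opposite (below), as log2(CPM + 1) minus the gene's mean over 11 libraries. Columns p21Het_2 and p21mTertCD_1 are high above the line and low below it, and WT_1 is the reverse.

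In endothelial barcodes of the same libraries Pigr reached 23.4 CPM at most, Fgg 3.54 and Orm1 3.24, and Lcn2 ranged from 35.5 to 209 CPM. Lrg1 ranged there from 121 to 483 CPM and C3 from 8.31 to 146, and in WT_1 C3 was higher in endothelial barcodes (139 CPM) than in AT2 cells (119). In club cells Pigr ranged from 41.1 CPM in p21mTert_2 to 404 in p21mTertCD_1, Fgg reached 2.11 CPM, and Orm1 ranged from 4.94 to 80.8. The few AT1 barcodes reached 993 CPM of Pigr, in p21mTert_1. Markers of macrophages moved with the acute-phase sum, with both highest in p21Het_2 and p21mTertCD_1, and their part in the result was not tested. Within libraries the levels differed from cell to cell. Among AT2 cells with at least 10000 UMIs, 7.24% held a Pigr UMI in WT_1, 88.4% in p21Het_2 and 79.4% in p21mTertCD_1, and in p21Het_1 46.5% did. The median Lcn2 level per 10000 UMIs ran from 4.92 in WT_1 to 61.3 in p21Het_2 and 52.0 in p21mTertCD_1, and in p21Het_1 the median was 9.93 with a 90th percentile of 77.5.

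The acute-phase and defence genes were also described by genotype, for the 15 that passed the filter on low counts. The median p21mTert minus p21Het difference was -1.19 (log2), with all 15 below 0, and became -0.07 without p21Het_2. Differences of tested markers of some other cells were also below 0 in this comparison, for 5 of 5 alveolar macrophage markers with a median of -1.51, 3 of 3 neutrophil markers (-1.24), 4 of 4 monocyte and interstitial macrophage markers (-1.07) and 7 of 7 endothelial markers (-0.94). Below 0 too were 5 of 5 erythroid markers (-0.23), 2 of 3 club cell markers (-0.06) and 2 of 3 B cell markers (-0.05). Above 0 were 4 of 5 ciliated cell markers (0.29), 2 of 4 fibroblast markers (0.32) and the 1 T cell marker (0.36). Without p21Het_2 the medians were -0.29 for alveolar macrophage markers, -1.74 for neutrophil markers, -0.10 for monocyte and interstitial macrophage markers and -0.46 for endothelial markers. The part of other cells' RNA in the difference was not tested. The median p21mTert minus p21mTertCD difference was -1.37 and became -0.08 without p21mTertCD_1, and these values for the acute-phase and defence genes each rest on 1 library. Of 14 tested secreted defence proteins, a list made for the cell type, 0 passed, with 1 higher and 4 lower at an unadjusted p under 0.05 in p21mTert than in p21Het (2.83% and 3.19% of all genes), and 2 and 0 without p21Het_2, where genes under that p in either direction went from 690 to 480 over all genes. Its most abundant members were the lysozyme gene Lyz2 at 21659 to 32593 CPM and the chemokine gene Cxcl15 at 5575 to 8654. Next came Chil1 and Lcn2, which are also on the acute-phase and defence list, so the 2 lists are not independent. Of 12 genes of complement and its inhibitors, 1 passed against p21Het (0.0524% of all genes) and 1 against p21mTertCD (0.0175%), Cd59a in both, with the inhibitor Cd55 at 46.3 to 66.9 CPM.

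Promoters that hold a match to either of 2 motifs are shown for 5 of the genes whose RNA was high and low in the same libraries, while Pigr and Itih4, which varied with them, hold none in this window. The 250 bases before the start site, read 5′ to 3′ on the gene's strand, came from RefSeq on GRCm38.p6. Capitals mark matches to CTGGGAA, the core of the interleukin-6 response element that STAT3 binds, or to TTNNGCAA, a form of the site that C/EBP factors bind, each searched on both strands. Fgg (chr3:83007474-83007723, plus strand) and Lrg1 (chr17:56121947-56122196, minus) hold the first, and Fga (chr3:83025903-83026152, plus), Saa3 (chr7:46715677-46715926, minus) and Lcn2 (chr2:32387740-32387989, minus) the second.
Fgg: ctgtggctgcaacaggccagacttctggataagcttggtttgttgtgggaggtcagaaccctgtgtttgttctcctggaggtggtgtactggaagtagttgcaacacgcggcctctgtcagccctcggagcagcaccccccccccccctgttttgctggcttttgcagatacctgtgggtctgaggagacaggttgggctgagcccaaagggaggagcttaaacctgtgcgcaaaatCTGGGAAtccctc
Lrg1: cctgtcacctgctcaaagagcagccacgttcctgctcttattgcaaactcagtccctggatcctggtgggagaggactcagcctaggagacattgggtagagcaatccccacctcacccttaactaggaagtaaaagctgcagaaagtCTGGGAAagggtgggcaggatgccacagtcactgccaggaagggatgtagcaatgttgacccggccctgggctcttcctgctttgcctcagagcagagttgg
Fga: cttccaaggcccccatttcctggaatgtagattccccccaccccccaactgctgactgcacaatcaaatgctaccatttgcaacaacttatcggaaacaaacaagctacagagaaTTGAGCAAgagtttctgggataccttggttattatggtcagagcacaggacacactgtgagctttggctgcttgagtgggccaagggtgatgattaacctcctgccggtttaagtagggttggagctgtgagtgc
Saa3: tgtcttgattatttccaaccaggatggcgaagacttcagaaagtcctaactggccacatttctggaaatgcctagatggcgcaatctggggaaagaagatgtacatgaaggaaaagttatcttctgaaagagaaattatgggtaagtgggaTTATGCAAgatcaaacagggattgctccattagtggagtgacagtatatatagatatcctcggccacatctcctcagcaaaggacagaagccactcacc
Lcn2: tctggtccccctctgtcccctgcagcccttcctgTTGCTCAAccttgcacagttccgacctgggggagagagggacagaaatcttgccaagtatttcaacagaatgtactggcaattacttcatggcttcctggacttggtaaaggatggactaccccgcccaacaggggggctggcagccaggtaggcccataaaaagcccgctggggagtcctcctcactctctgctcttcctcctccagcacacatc

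Of the 12 acute-phase and defence genes found in the RefSeq table, 4 hold CTGGGAA in this window, where 9.10% of 32851 promoters do, and 7 hold TTNNGCAA, where 9.56% do. These counts include Fgb, which holds both and had 0 UMIs in AT2 cells of every library, and without it they are 3 and 6 of 11. A match describes the letters and shows neither a bound site nor a cause, and the genes were chosen with their values known.

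Clustering the AT2 cells by their own RNA gave 11 clusters, which differ by the genes that made them and so are described without a test. Cluster 1 (678 cells) was led by Areg, Ptgs2, Ndnf, Gdf15, Cyr61, Hbegf, Thbs1, Timp3, S100a6 and Krt19. Cluster 2 (633 cells) was led by Pigr, Fga, Il4i1, Itih4 and Orm1, and cluster 3 (633 cells) by Pon1, Bex2 and Bex4. Cluster 4 (566 cells) was led by the lysolipid transporter Mfsd2a and by Lss, Dhcr7, Hmgcs1 and Cyp51, enzymes of cholesterol synthesis. Clusters 5 (533 cells) and 6 (306) were shallow, with medians of 2864 and 3188 UMIs, and were led by Chil3, Retnla and haemoglobin genes and by Cst8, Bex2 and ribosomal genes. Of the rest, clusters 7, 9, 10 and 11 (202 cells together) were led by genes of club cells, endothelial cells, lymphocytes and platelets, and cluster 8 by Gm26917. Without these 202 cells 5 genes passed between p21mTert and p21Het.

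Cluster 2 held 0.373% of AT2 cells in the WT library, 22.7%, 44.2% and 1.43% in those of p21Het, 22.8%, 0.773%, 13.7%, 7.83% and 1.195% in those of p21mTert, and 45.3% and 4.95% in those of p21mTertCD. It was near 0 in at least 1 library of p21Het, p21mTert and WT and near 45% in 1 library each of p21Het and p21mTertCD. Cluster 3 held 57.5% in the WT library, 29.8%, 0.846% and 15.7% in those of p21Het, 15.2%, 20.1%, 11.1%, 17.2% and 20.3% in those of p21mTert, and 2.86% and 15.8% in those of p21mTertCD. It was rare where cluster 2 was common in p21Het_2 and p21mTertCD_1, but p21Het_1 held both. Cluster 4 ranged from 7.09% in WT_1 to 27.8% in p21mTert_2, and cluster 1 from 5.75% in p21Het_2 to 32.5% in p21mTert_2.

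**Figure D5:**
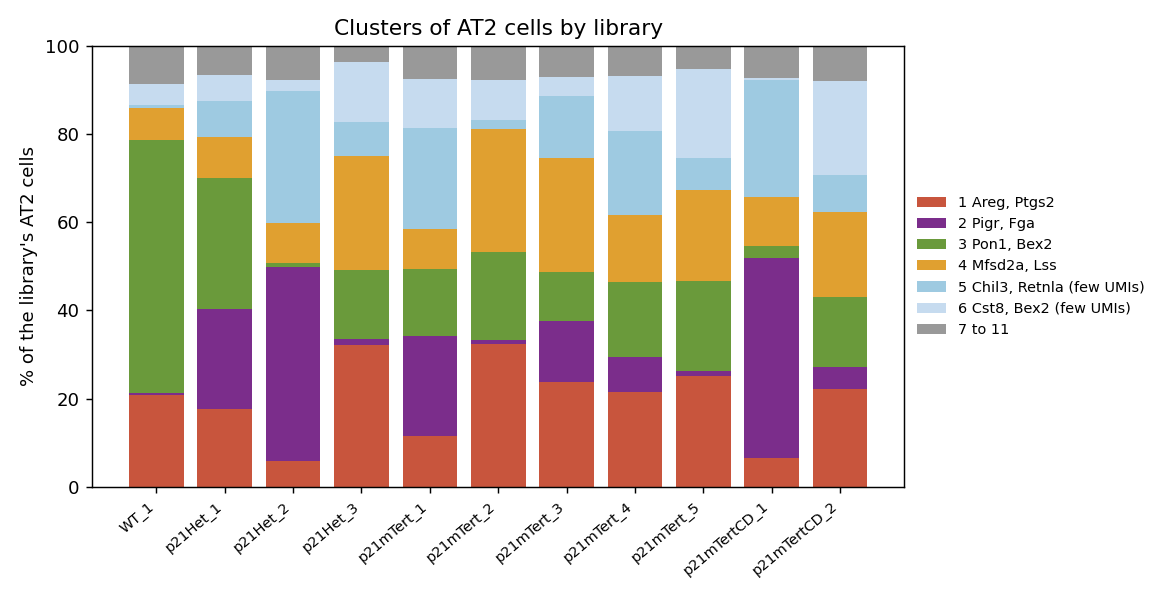
Share of each library's AT2 cells in clusters 1 to 6, named by 2 leading genes, and in clusters 7 to 11 together (grey), stacked to 100%. Cluster 2 (Pigr, Fga; purple) takes 44.2% in p21Het_2 and 45.3% in p21mTertCD_1, and cluster 3 (Pon1, Bex2; green) takes 57.5% in WT_1.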

How the data were processed

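Single-cell RNA of dissociated mouse lung was measured in 11 libraries (1 WT, 3 p21Het, 5 p21mTert, 2 p21mTertCD). The deposited values are UMI counts per gene and barcode in filtered matrices, made with Cell Ranger 3.1.0 per the file headers (the series' design text names 2.3) on mm10 per the submitters' processing notes. They cover 31053 genes. The members and the 32 gene lists (385 distinct genes, some on more than 1 list) were chosen with earlier results of these data known.

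UMIs of the AT2 cells of each library were summed and the 10 replicated libraries fitted together with edgeR 4.0.16 (R 4.3.3; filterByExpr, TMM scaling, quasi-likelihood test, Benjamini-Hochberg adjustment over all genes tested, threshold 0.05). WT has 1 library and enters no test. The intervals of its gene levels are exact Poisson ones, and that of its share of barcodes is an exact Clopper-Pearson one. The interaction fit compared the AT2 sum with the sum of the other filtered barcodes, with the library as a block. Shares of barcodes were compared by exact permutation. Intervals cover counting error only. Clusters came from scanpy 1.11.5 and leidenalg 0.10.2 (1500 variable genes, 20 components, 20 neighbours, resolution 0.8). Doublets were scored with Scrublet and kept, and leaving the highest-scored barcodes out was an alternative. Totals per library were 42038434 to 85988955 UMIs.

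Always named were the AT2 markers, Cdkn1a, Tert, Cd59a, Camk2b, Wdfy1 and Rell1. Also named were up to 10 called genes per direction whose higher group averaged 10 CPM or more, and for each list its called members or else up to 4 of the highest mean level. Mrc2, Cd59b, Usp18, Chil3, Lgals3 in CPM, Gm42418 and the genes of the acute-phase and opposite lists were named after their values were seen. On simulated data with known changes the p21mTert minus p21Het fit recovered 82.4% of genes changed by 1 and 96.3% of those changed by 2 on the log2 scale, with 13 false among 193 calls over 11351 genes. The p21mTertCD minus p21Het fit recovered 61% and 91%, and the interaction fit 44.6% and 89.9%. Only genes with higher counts were changed, and libraries were drawn independently, without the shared shifts of single libraries. Recovery in the real data may therefore be lower. Alternatives were other scaling (RLE), no filter on low counts, DESeq2 1.42.0, other AT2 rules, a deposit term, a replicate block and leaving out each library.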

Additional observations from a re-analysis of the deposited data

Results flagged for a closer look

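Scd1 stood at 11086 CPM in AT2 cells of p21mTert_1, far from the other 4 p21mTert libraries at 6241 to 7576 CPM. Etv5 stood at 300.3 CPM in p21mTert_3, below the other 4 at 375 to 402.4 CPM. These were 2 of 41 sets of values examined for a library far from its group, and chance alone marks about 1 in 20.

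The p21mTert minus p21Het difference was not the same in AT2 cells and endothelial barcodes for a pair of genes. The difference between the 2 cell classes was 1.911 (log2) for Cd59a and -1.327 for Rell1, each with an adjusted p of 0.0492 by edgeR's quasi-likelihood test of the interaction. Against all other barcodes together neither passed.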

How the results depend on the processing

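The p21mTert minus p21Het call count of 6 became 17 with no filter on low counts, 3 with a deposit term, 10 with the looser AT2 rule and 15 with DESeq2. It became 0 when members with RNA of other cells were left out with Ager counted among that RNA, which leaves 12 to 44 cells per library. Leaving out single libraries gave 3 (without p21mTert_2, p21mTert_3 or p21mTert_4) to 10 (without p21mTertCD_2). The p21mTert minus p21mTertCD count of 2 became 9 with no filter, 4 with the looser rule, 0 with Ager counted, 7 with only the groups compared and 10 with DESeq2. It became 4 with a ceiling of 60000 UMIs, 4 with members of at least 10000 UMIs and 4 in the later deposit alone, all chosen after seeing the data. Leaving out single libraries gave 2 to 6, with 4 without p21Het_1, p21Het_2 or p21mTertCD_1 and 6 without p21mTertCD_2. The p21mTertCD minus p21Het count of 0 ran from 0 to 2, the latter without p21mTertCD_2. The interaction count of 0 became 2 against endothelial barcodes and 5 with Ager counted. The cause of these shifts was not tested. The share difference between p21mTert and p21Het became -0.15 points over barcodes with at most 1 Ptprc UMI, and ran from -1.13 (without p21Het_3) to 1.14 points over single libraries left out, with -0.10 without p21mTert_4.

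With the replicate number as a block, 0 genes passed for p21mTert minus p21Het and 0 for p21mTert minus p21mTertCD, in a fit of all 10 libraries with 1 residual degree of freedom, since p21Het_1 and p21mTert_1, whose titles carry no number, had a level each. Cd59a then differed from p21Het by 1.97 (log2, adjusted p = 0.943). Libraries sharing number 2 or 3 had correlations of -0.179, -0.106, 0.0987 and -0.470 in their deviations, so these numbers were not taken to pair samples, and number 1 is in the title of p21mTertCD_1 alone and gave no pair. Cd59a, Camk2b and Rell1 passed against p21Het in the other 23 of 24 alternatives in which they were tested, and the filter on low counts removed them where Ager was counted.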
